A study of Mus musculus with 70 samples.

Results

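Nr4a1, Nr4a2, Nr4a3, Egr2 and Egr3 are immediate early genes that a T cell switches on within a short time of T cell receptor (TCR) stimulation. They were chosen by name, as 5 of the 53465 gene identifiers in the count table, and were followed in regulatory T cells (Tregs) from 6 tissues. All 5 passed the filter on low counts. The libraries came from 5 male Foxp3-YFP-cre mice that carry the Foxp3tm4(YFP/icre)Ayr allele, aged 16.6 to 18.6 weeks. In these mice the Foxp3 locus drives a fusion of yellow fluorescent protein and Cre, so that every group shares this allele and YFP reports the cells that express Foxp3. Live CD45.2+ CD4+ YFP+ cells, with cells of other lineages gated out (CD8 and CD11b among the markers), were sorted from blood, spleen, lungs, visceral adipose tissue (VAT), colon and skin. Sorting gave ST2+ CD44hi and ST2- CD44hi Tregs from all 6 tissues, and ST2- CD44lo CD62L+ Tregs from spleen and lungs. ST2 is the receptor for interleukin 33, high CD44 marks effector Tregs, and low CD44 with CD62L marks central Tregs. Each of the 14 groups had 1 library per mouse, usually from 220 cells, and each library was a bulk RNA measurement of those few cells.

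TCR signalling raises calcium and activates calcineurin and NFAT, and in parallel it activates the MAPK cascade. Both arms act on the promoters of the NR4A and EGR genes, whose transcripts are made and lost quickly. NR4A proteins are nuclear receptors that bind DNA without a known hormone-like ligand and help Tregs to maintain Foxp3, while EGR proteins are zinc finger factors that restrain T cell responses.

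Of 70 libraries, 67 held over 1000000 counts and entered every comparison, with totals from 1304560 to 2759926. The 3 others, 1 from blood and 2 from colon, all ST2+ CD44hi, held 3582 to 488666 counts and were left out, which leaves n = 4 (mice 2 to 5) in blood ST2+ CD44hi, n = 3 (mice 1, 3 and 4) in colon ST2+ CD44hi and n = 5 elsewhere. Of the kept libraries, 7 came from fewer than 220 cells. In VAT ST2- CD44hi, mice 2 to 5 gave 93, 192, 118 and 135 cells. In blood, ST2+ CD44hi of mice 2 and 3 had 202 and 55 cells and ST2- CD44hi of mouse 1 had 166. Group means of Foxp3 lay between 139 and 381 CPM (counts scaled to library size), of Cd4 between 306 and 527 CPM, and of Cd3e between 348 and 571 CPM. Il1rl1, which encodes ST2, had group means from 275 to 1457 CPM in the ST2+ groups and from 0.228 to 118 CPM in the ST2- groups. The colon ST2+ libraries stood apart in myeloid markers. Their summed level of 8 myeloid markers, all detected, was 1189.9 to 1436 CPM, against at most 235 CPM in any library of another group, and their 8 epithelial and stromal markers summed to 686 to 1736 CPM, a range that libraries of colon ST2- CD44hi (up to 1223 CPM) and of skin (up to 1178 CPM) overlapped. Of the 2 CD8 markers, Cd8a was at 0 in 12 of the 14 groups, whereas Cd8b1 was detected in every group. In VAT ST2+ CD44hi, where Cd8a was at 0, Cd8b1 measured 19.3 to 98.5 CPM. The 4 B cell markers summed to 65.6 to 384 CPM in colon ST2+ CD44hi and to at most 205 CPM in any library of another group.

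The genes lie on 5 chromosomes of the mouse build GRCm38, where no other annotated gene overlaps any of them. Nr4a1 (ENSMUSG00000023034) spans chr15:101254269-101274795 on the plus strand, Nr4a2 (ENSMUSG00000026826) chr2:57106830-57124003 on the minus strand, and Nr4a3 (ENSMUSG00000028341) chr4:48045153-48086447 on the plus strand. Egr2 (ENSMUSG00000037868) spans chr10:67535475-67542188 and Egr3 (ENSMUSG00000033730) chr14:70077203-70082614, both on the plus strand. The 250 bases upstream of the RefSeq transcription start are shown for the 4 members that matched the promoter table (RefSeq, GRCm38.p6), because the NR4A and EGR transcripts differed in where they were high. Nr4a1 is chr15:101266596-101266845 on the plus strand, Nr4a2 chr2:57124004-57124253 on the minus strand, Nr4a3 chr4:48045055-48045304 on the plus strand and Egr2 chr10:67537619-67537868 on the plus strand. Capitals mark TGACG or its reverse complement CGTCA, the longer TGCGTCA that contains CGTCA, and, in Egr2, a CArG box. TGACG is the core of the cyclic AMP response element, which CREB and ATF proteins bind, and the CArG box binds serum response factor.
Nr4a1: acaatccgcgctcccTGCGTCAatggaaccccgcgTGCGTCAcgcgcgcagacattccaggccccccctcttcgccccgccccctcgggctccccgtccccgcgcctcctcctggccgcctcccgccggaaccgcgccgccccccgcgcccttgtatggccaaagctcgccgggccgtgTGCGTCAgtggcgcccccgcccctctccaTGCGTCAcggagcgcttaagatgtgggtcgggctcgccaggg
Nr4a2: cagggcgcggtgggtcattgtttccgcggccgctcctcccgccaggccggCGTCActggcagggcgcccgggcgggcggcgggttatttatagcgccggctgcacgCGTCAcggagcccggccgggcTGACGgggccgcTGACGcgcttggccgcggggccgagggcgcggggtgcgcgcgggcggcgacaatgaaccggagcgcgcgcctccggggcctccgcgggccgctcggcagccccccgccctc
Nr4a3: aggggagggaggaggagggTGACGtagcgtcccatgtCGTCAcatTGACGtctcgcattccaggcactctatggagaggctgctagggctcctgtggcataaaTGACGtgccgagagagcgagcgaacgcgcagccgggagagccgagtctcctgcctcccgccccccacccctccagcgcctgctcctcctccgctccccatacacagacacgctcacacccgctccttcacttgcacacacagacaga
Egr2: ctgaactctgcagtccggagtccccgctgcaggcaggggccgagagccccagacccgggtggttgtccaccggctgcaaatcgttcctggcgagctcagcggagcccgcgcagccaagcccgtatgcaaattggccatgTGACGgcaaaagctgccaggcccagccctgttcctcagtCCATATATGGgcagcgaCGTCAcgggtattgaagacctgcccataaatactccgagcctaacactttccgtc
TGACG occurred 4 times, on either strand, in each of the 3 NR4A promoters and 2 times in the Egr2 window shown, which is 1 of 5 promoter entries of Egr2 and the nearest to the annotated 5′ end of its principal transcript. Matches in the other Egr2 entries are not given here. Of 32817 promoter windows of this length, 17.7% held it at least once and 0.137% held it 4 times or more. The 4 matches in Nr4a1 all lay within TGCGTCA, which 1.74% of windows held. The 1 CArG box was in Egr2, and 1.47% of windows held one. The full element TGACGTCA (1.55% of windows), the NR4A binding site AAAGGTCA (1.34%) and the EGR binding site GCGTGGGCG (0.536%), searched on both strands, did not occur in the 4 windows. These are matches of letters and were not tested as binding sites.

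In CD44hi Tregs, the group means of the 3 NR4A transcripts were low in blood, intermediate in spleen and high in lungs, VAT, colon and skin. Splenic ST2- CD44lo CD62L+ Tregs were lower for Nr4a2 (mean 0.629 CPM, below both blood groups) and Nr4a3 (mean 5.89 CPM, between the blood groups). Egr2 followed another order, highest in spleen and, in CD44hi Tregs, near 0 in blood and lungs. Lung ST2- CD44lo CD62L+ Tregs had an Egr2 mean of 5.90 CPM. Egr3 was low everywhere. Levels are given in CPM scaled by the trimmed mean of M values (TMM), in the order of mice 1 to 5. In blood, Nr4a1, the NR4A gene most used as a reporter of TCR signals, measured 19.7, 2.55, 17.97 and 12.2 CPM in ST2+ CD44hi Tregs of mice 2 to 5 and 49.1, 4.38, 23.4, 9.18 and 14.04 CPM in ST2- CD44hi Tregs. In spleen, Nr4a1 was 133, 104, 116, 29.4 and 17.6 CPM in ST2+ CD44hi, 225, 84.96, 97.4, 49.7 and 63.3 CPM in ST2- CD44hi and 101, 62.3, 61.6, 13.9 and 78.8 CPM in ST2- CD44lo CD62L+ Tregs. Splenic libraries of the same population thus differed several-fold between mice, and mice 4 and 5 held the lowest ST2+ CD44hi values. In lungs, Nr4a1 reached 938, 998, 941, 934 and 649 CPM in ST2+ CD44hi, 591, 511, 534, 294 and 402 CPM in ST2- CD44hi and 478, 651, 561, 352 and 679 CPM in ST2- CD44lo CD62L+ Tregs. VAT gave 931, 1157, 1155, 1052 and 907 CPM in ST2+ and 343, 585, 534, 508 and 447 CPM in ST2- CD44hi Tregs. Every lung and VAT library lay above every splenic library, the nearest pair being lung ST2- CD44hi of mouse 4 and splenic ST2- CD44hi of mouse 1. In colon, Nr4a1 was 815, 860.4 and 781 CPM in ST2+ CD44hi Tregs of mice 1, 3 and 4 and 654, 654, 618, 486 and 492 CPM in ST2- CD44hi Tregs. Skin gave 996, 1021, 1138, 992 and 1041 CPM in ST2+ and 941, 1019, 975, 562 and 943 CPM in ST2- CD44hi Tregs, with mouse 4 the lowest of the ST2- libraries.

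**Figure D1:**
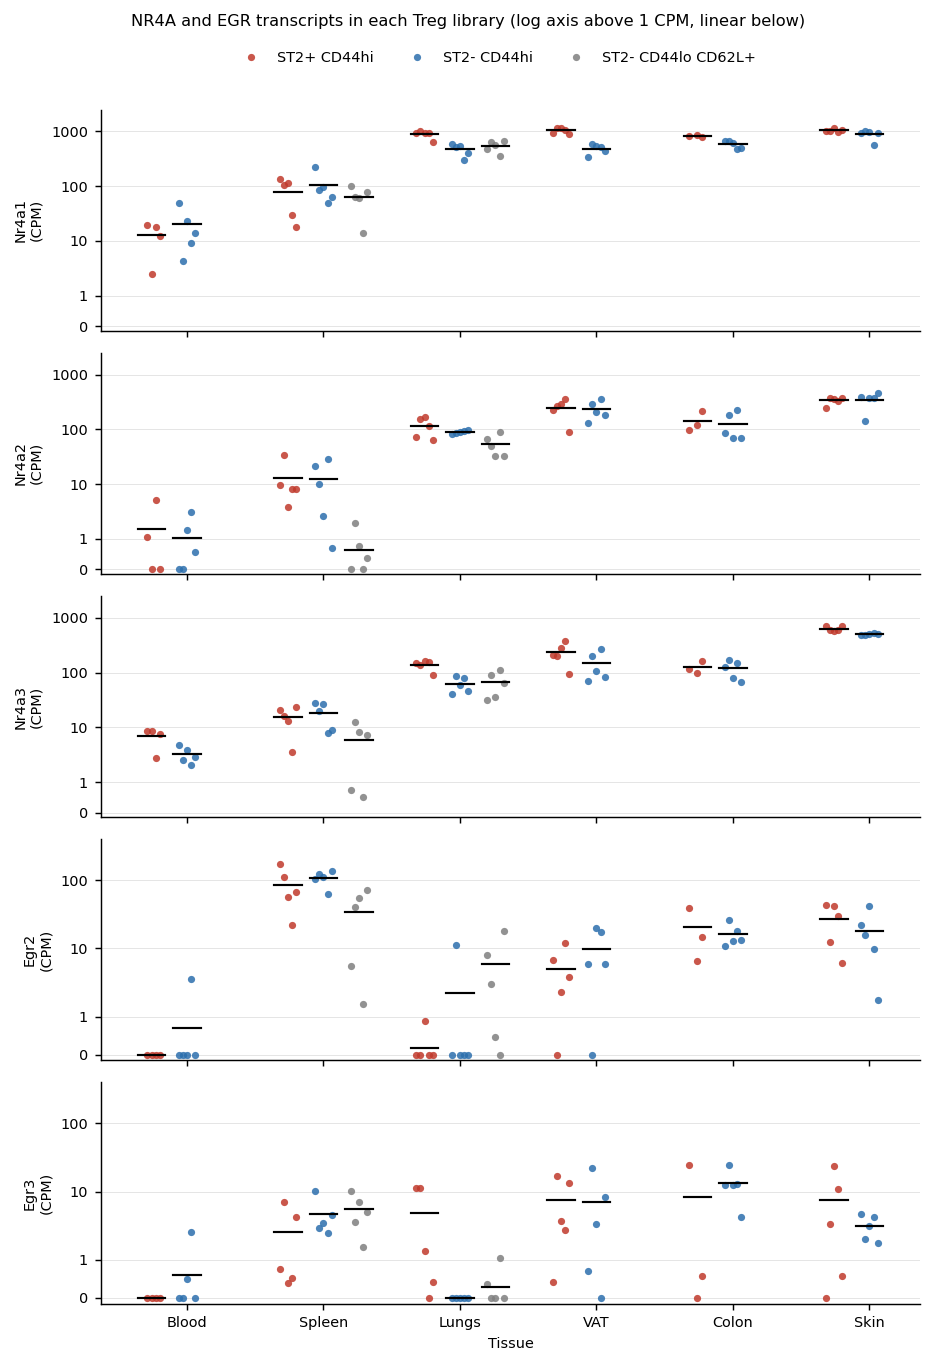
Level of each gene in every kept Treg library (vertical axis, CPM on a log scale above 1 CPM and linear below it) by tissue (horizontal axis). Points are libraries coloured by population and horizontal bars are group means. In CD44hi Tregs the NR4A means step up from blood to spleen to lungs, VAT, colon and skin. Egr2 is highest in spleen (62.6 to 137 CPM in ST2- CD44hi) and at or near 0 in most blood and lung libraries.

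Nr4a2 and Nr4a3, the 2 other NR4A receptors, recognise the same DNA element as Nr4a1. Nr4a2 was nearly absent from blood, at 1.06, 0, 5.07 and 0 CPM in ST2+ CD44hi and 0, 0, 1.46, 3.06 and 0.585 CPM in ST2- CD44hi Tregs. Splenic Nr4a2 was 9.85, 34.3, 3.902, 8.26 and 8.11 CPM in ST2+ CD44hi, 21.3, 10.04, 2.61, 28.2 and 0.703 CPM in ST2- CD44hi and 0, 1.98, 0.774, 0 and 0.388 CPM in ST2- CD44lo CD62L+ Tregs. Lungs held 72.8, 152, 166, 114 and 62.8 CPM in ST2+ CD44hi, 80.9, 86.1, 91.2, 91.3 and 96.8 CPM in ST2- CD44hi and 66.2, 50.2, 33.3, 90.8 and 32.7 CPM in ST2- CD44lo CD62L+ Tregs. Each lung population was thus above its splenic counterpart without overlap. In VAT, Nr4a2 was 225, 265, 289.6, 359.7 and 89.5 CPM in ST2+ and 128, 293, 205, 351 and 183 CPM in ST2- CD44hi Tregs. Colon gave 95.4, 119 and 215 CPM in ST2+ and 84.1, 183, 69.4, 221 and 68.9 CPM in ST2- CD44hi Tregs. Skin gave 247, 377, 351, 329.6 and 375 CPM in ST2+ and 381, 140.2, 372, 379 and 459.7 CPM in ST2- CD44hi Tregs. Skin and VAT held the highest group means, and mouse 5 was lowest in VAT ST2+ CD44hi and mouse 2 in skin ST2- CD44hi.

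Nr4a3 measured 8.51, 8.49, 2.76 and 7.68 CPM in ST2+ and 4.83, 2.502, 3.898, 2.04 and 2.93 CPM in ST2- CD44hi Tregs of blood. In spleen it was 20.8, 15.96, 13.3, 3.61 and 23.6 CPM in ST2+ CD44hi, 27.3, 20.1, 26.5, 7.87 and 8.79 CPM in ST2- CD44hi and 0.733, 12.7, 8.13, 0.516 and 7.38 CPM in ST2- CD44lo CD62L+ Tregs. Blood and spleen overlapped in the ST2+ population through mouse 4 of the spleen, and did not overlap in the ST2- CD44hi population. Nr4a3 in lungs was 149, 139, 161, 156 and 89.7 CPM in ST2+ CD44hi, 41.4, 86.1, 59.8, 80.9 and 46.2 CPM in ST2- CD44hi and 31.6, 90.9, 35.1, 109.7 and 65.4 CPM in ST2- CD44lo CD62L+ Tregs. VAT gave 213, 198, 280.4, 373 and 95.9 CPM in ST2+ and 69.8, 201, 107, 269 and 84.6 CPM in ST2- CD44hi Tregs. Colonic Nr4a3 was 115, 98.8 and 166 CPM in ST2+ and 128, 170.5, 79.1, 152 and 67.6 CPM in ST2- CD44hi Tregs. Skin stood apart, since its libraries held 707, 602, 582, 593 and 692 CPM in ST2+ and 479, 479, 507, 531 and 506 CPM in ST2- CD44hi Tregs, above every library of any other tissue. Divided by exon length, the mean level in skin ST2+ CD44hi Tregs was 106 CPM per kb for Nr4a3, 82.8 CPM per kb for Nr4a2 and 296 CPM per kb for Nr4a1. Over the 14 groups, Nr4a1 made up a mean of 59.6% to 94.2% of the summed NR4A level per kb.

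These tissue differences were then set against the spread between mice. A gene was called where its fold reached 1.5 and its p by edgeR's quasi-likelihood test, adjusted by Benjamini-Hochberg over 13173 tested genes, did not exceed 0.05. All 5 genes differed among the 6 tissues by the edgeR F test in both CD44hi populations, where 47.6% of all tested genes passed in the ST2+ and 43.5% in the ST2- population. In the 15 pairs of tissues, the members gave 42 calls of 75 in the ST2+ population (background 12.1% of all tested genes and pairs) and 46 of 75 in the ST2- population (background 11.8%). Of these, the NR4A genes gave 30 of 45 and 32 of 45, and the EGR genes 12 of 30 and 14 of 30.

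For Nr4a1, spleen exceeded blood with a log2 difference of 2.63 in ST2+ (edgeR adjusted p = 1.81e-04) and 2.33 in ST2- CD44hi Tregs (adjusted p = 1.01e-04). Spleen and blood differed in 3 of the 5 members in ST2+ and 4 of 5 in ST2- CD44hi Tregs, against 4.11% and 3.38% of all tested genes. Lungs exceeded spleen for Nr4a1 in ST2+ (log2 difference 3.48, SE 0.39, adjusted p = 9.34e-10) and in ST2- CD44hi Tregs (log2 difference 2.16, SE 0.38, adjusted p = 3.16e-05). Lungs and spleen differed in 4 of 5 members in the ST2+ and 5 of 5 in the ST2- population, against 4.87% and 4.03% of all genes. Among lungs, VAT, colon and skin, no pair was called different for Nr4a1, and no neighbours in the order of Nr4a2 means, in either population. Tissues further apart in that order did differ for Nr4a2. Skin exceeded lungs in ST2+ (log2 difference 1.57, edgeR adjusted p = 0.00905) and ST2- CD44hi Tregs (1.95, adjusted p = 0.00104). Skin also exceeded colon in ST2- CD44hi Tregs (1.46, edgeR adjusted p = 0.0160). Nr4a2 gave lung minus spleen log2 differences of 3.16 and 2.83 (edgeR adjusted p = 8.84e-06 and 6.22e-05). Nr4a3 gave 3.14 and 1.79 (edgeR adjusted p = 5.32e-08 and 0.00204). The step from VAT, the next tissue in order, up to skin was called for Nr4a3, at 1.45 (adjusted p = 0.00189) in ST2+ and 1.78 (adjusted p = 2.21e-04) in ST2- CD44hi Tregs, where 21.9% and 18.1% of all genes were called. Nr4a3 in blood and spleen of the ST2+ population differed by 1.19 on the log2 scale (adjusted p = 0.174), which did not pass. The tissues were also handled differently, since lungs, VAT, colon and skin were digested with warm enzymes and blood and spleen were not. Spleens were broken up mechanically, and spleen and lung cells, but not blood, were enriched for CD4+ T cells before sorting. Handling and tissue cannot be told apart, in spleen against blood as well. In these bulk libraries, fewer cells that express a gene and less RNA per cell cannot be told apart either.

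Egr2, which limits T cell activation together with Egr3, was highest in spleen. Splenic Egr2 was 172, 112, 56.6, 22.2 and 67.04 CPM in ST2+ CD44hi, 106, 123, 112, 62.6 and 137 CPM in ST2- CD44hi and 5.497, 40.1, 55.4, 1.55 and 71.05 CPM in ST2- CD44lo CD62L+ Tregs. All 4 blood ST2+ CD44hi libraries held 0 counts, which allows up to 0.348 CPM (3 counts over the group, counting error only), and 1 of 5 blood ST2- CD44hi libraries, of mouse 4, held any (3.57 CPM). In lungs, Egr2 was 0, 0, 0.896, 0 and 0 CPM in ST2+ CD44hi, 0, 11.1, 0, 0 and 0 CPM in ST2- CD44hi and 8.09, 3.01, 0.469, 0 and 17.95 CPM in ST2- CD44lo CD62L+ Tregs. In spleen Egr2 was therefore detected in 15 of 15 libraries of the 3 populations, and in the CD44hi Tregs of lungs in 2 of 10. Of the 5 lung libraries of ST2- CD44lo CD62L+ Tregs, only 1 held none. VAT held 6.89, 0, 2.298, 11.9 and 3.83 CPM in ST2+ and 5.96, 0, 19.9, 17.6 and 5.902 CPM in ST2- CD44hi Tregs. Colon held 39.8, 6.64 and 14.9 CPM in ST2+ and 10.8, 26.2, 12.97, 18.2 and 13.3 CPM in ST2- CD44hi Tregs. Skin held 43.5, 12.6, 41.5, 30.04 and 6.21 CPM in ST2+ and 22.2, 15.5, 42.1, 9.79 and 1.76 CPM in ST2- CD44hi Tregs. Among the CD44hi populations, the means of VAT, colon and skin lay between those of lungs and spleen, with overlapping libraries.

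In ST2+ CD44hi Tregs, spleen held 1071 Egr2 counts and lungs 2, a ratio of 456 (95% counting interval 126 to 3772, edgeR adjusted p = 1.76e-05). In the ST2- CD44hi population, the lung minus spleen log2 difference was -5.70 (SE 1.16, edgeR adjusted p = 4.67e-04), and all 17 lung counts came from mouse 2. Against blood, splenic Egr2 was at least 254-fold higher in ST2+ CD44hi Tregs and 7.10 higher on the log2 scale in ST2- CD44hi Tregs (edgeR adjusted p = 1.01e-04). VAT minus spleen was -4.07 (adjusted p = 0.00412) and -3.44 (adjusted p = 0.0225), where 11.2% and 5.78% of all genes were called. Skin minus spleen was -1.68 in ST2+ (edgeR adjusted p = 0.157, not called) and -2.56 in ST2- CD44hi Tregs (adjusted p = 0.0316), against backgrounds of 29.1% and 30.9%. Colon minus spleen was -2.06 in ST2+ (edgeR adjusted p = 0.276, not called) and -2.73 in ST2- CD44hi Tregs (adjusted p = 0.0496), against 10.4% and 11% of all genes. The colon ST2+ libraries also held the myeloid markers given above, whose part in the colon values was not tested.

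Egr3, the closest relative of Egr2, was near the detection limit, so its raw counts are given. Blood held 0, 0, 0 and 0 counts in ST2+ and 0, 0, 1, 5 and 0 counts in ST2- CD44hi Tregs. Spleen held 2, 15, 1, 1 and 12 counts in ST2+ CD44hi, 27, 7, 8, 6 and 13 in ST2- CD44hi and 28, 9, 18, 3 and 13 in ST2- CD44lo CD62L+ Tregs. Lungs held 26, 22, 3, 0 and 1 counts in ST2+ CD44hi, 0, 0, 0, 0 and 0 in ST2- CD44hi and 1, 0, 0, 2 and 0 in ST2- CD44lo CD62L+ Tregs. All splenic libraries thus had at least 1 count, and all lung ST2- CD44hi libraries had none, which allows up to 0.310 CPM. VAT held 1, 30, 8, 6 and 21 counts in ST2+ and 2, 35, 7, 0 and 17 in ST2- CD44hi Tregs. Colon held 51, 0 and 1 counts in ST2+ and 22, 38, 19, 31 and 7 in ST2- CD44hi Tregs. Skin held 0, 5, 38, 13 and 1 counts in ST2+ and 11, 3, 5, 6 and 3 in ST2- CD44hi Tregs. Mice of the same group differed widely, as in colon ST2+ CD44hi, where mouse 1 held 51 counts and mouse 3 none. Splenic Egr3 in ST2- CD44hi Tregs was at least 15.6-fold higher than in lungs (edgeR adjusted p = 0.0111). In the same population, colon (at least 42.5-fold, edgeR adjusted p = 0.00195), VAT (19.0-fold, 0.0134) and skin (10.6-fold, 0.00692) were also called above lungs. Blood was not (edgeR adjusted p = 0.217). No neighbours in the order of Egr3 means were called different. The difference among tissues in the ST2+ population had an edgeR adjusted p of 0.0251 and was lost when mouse 2, 3, 4 or 5 was left out, with adjusted p from 0.0533 to 0.109.

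The share of EGR transcripts among the 5 genes was largest in spleen. Per kb of exon, Egr2 and Egr3 made up a mean of 46.9% of the summed CPM of the 5 genes in splenic ST2+ CD44hi, 50.1% in ST2- CD44hi and 32.7% in ST2- CD44lo CD62L+ Tregs. In the 11 other groups the mean share was at most 6.39%, a value that 1 blood library at 30.5% set. In splenic ST2- CD44hi Tregs the mean level per kb was 31.8 CPM for Egr2 and 29.7 CPM for Nr4a1. The lowest splenic shares were in ST2- CD44lo CD62L+ Tregs, which ranged from 12.00% to 48.4%.

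**Figure D2:**
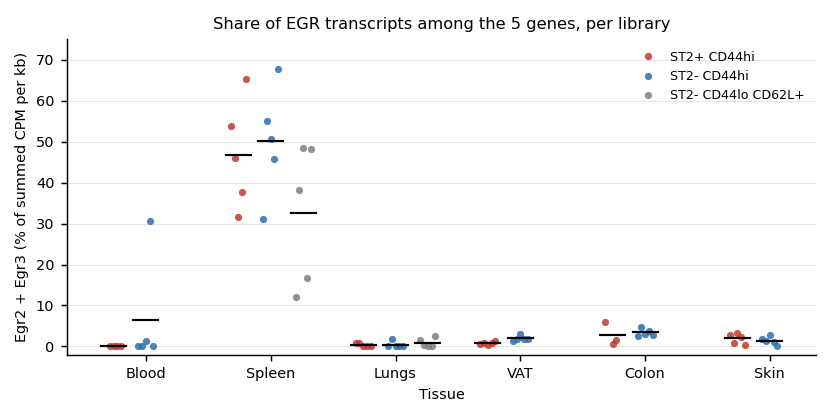
Share of Egr2 and Egr3 in the summed CPM per kb of the 5 genes (vertical axis, percent) in each kept library, by tissue and coloured by population. Spleen ST2- CD44hi libraries sit between 31.1% and 67.8%, whereas lungs ST2+ CD44hi libraries sit between 0% and 0.832%.

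Central Tregs, ST2- CD44lo CD62L+, allowed lungs and spleen to be compared outside the effector populations. Here too the NR4A genes were higher in lungs, with 3 of 5 members called against 3.16% of all genes. Nr4a1 differed by 3.09 on the log2 scale (SE 0.39, edgeR adjusted p = 2.37e-08). Nr4a2, with splenic values of at most 1.98 CPM, differed by 6.27 (SE 0.76, edgeR adjusted p = 5.07e-09), and Nr4a3 by 3.45 (SE 0.45, edgeR adjusted p = 5.38e-08). Egr2 overlapped, and its difference of -2.52 did not pass (edgeR adjusted p = 0.164). Egr3 did not overlap, with 71 counts in spleen and 3 in lungs, a ratio of 21.6 (95% counting interval 7.09 to 107), and missed the edgeR threshold (adjusted p = 0.104), but was called by DESeq2 (adjusted p = 0.0344) and by limma voom (adjusted p = 0.00197).

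Effector and central Tregs of the same ST2 status were then compared within spleen and within lungs. In spleen, 2 of 5 members were called against 5.03% of all genes, both higher in CD44hi Tregs. Nr4a2 was higher by 4.15 (SE 0.84, edgeR adjusted p = 2.45e-04) and Nr4a3 by 1.58 on the log2 scale (SE 0.47, edgeR adjusted p = 0.0270). The Nr4a3 call was lost without mouse 1 (log2 difference 1.07, adjusted p = 0.312) or mouse 3 (1.55, adjusted p = 0.148). Under limma voom with quality weights neither Nr4a2 (adjusted p = 0.0508) nor Nr4a3 (adjusted p = 0.116) passed. Egr2 differed by 1.64 by edgeR (adjusted p = 0.421) and was higher in CD44hi Tregs of 5 of 5 mice; limma voom called it (2.36, adjusted p = 9.77e-04). Nr4a1 differed by 0.70 (edgeR adjusted p = 0.381) and Egr3 by -0.22 (adjusted p = 1). In lungs, edgeR called 0 of 5 members, against 5.53% of all genes, with 0 at an unadjusted p under 0.05 and 0 by DESeq2 and limma voom. The Nr4a1 interval of the lung difference was -0.93 to 0.49 on the log2 scale, that of Nr4a2 -0.21 to 1.63 and that of Nr4a3 -0.83 to 0.68. Lung Egr2 was called lower in CD44hi Tregs when mouse 2 was left out (edgeR adjusted p = 0.0143), which leaves that group at 0 counts and gives no measured fold. Whether the CD44 differences themselves varied between spleen and lungs was not tested.

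**Figure D3:**
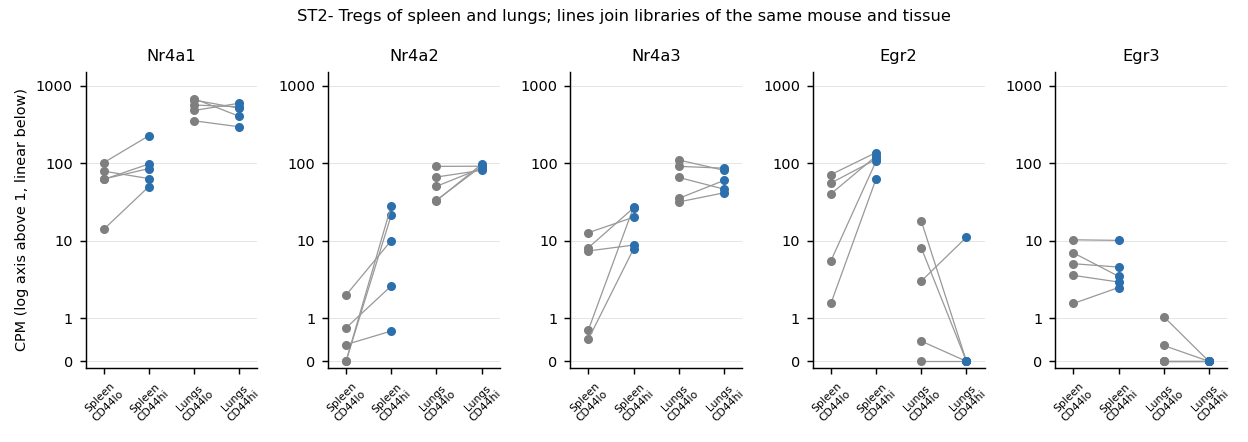
Level of each gene (vertical axis, CPM on a log scale above 1 CPM and linear below it) in ST2- CD44lo CD62L+ and ST2- CD44hi Tregs of spleen and lungs, with lines that join the libraries of 1 mouse. The lung libraries of Nr4a1, Nr4a2 and Nr4a3 sit above the splenic ones in both populations, and those of Egr2 and Egr3 mostly sit below.

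ST2+ and ST2- CD44hi Tregs were compared within each of the 6 tissues, which gave 1 call by edgeR. In lungs, Nr4a1 was higher in ST2+ Tregs of 5 of 5 mice and the populations did not overlap, with a log2 difference of 0.94 (95% confidence interval 0.22 to 1.65, edgeR adjusted p = 0.290). Lung Nr4a3 likewise did not overlap, with a difference of 1.14 (95% confidence interval 0.39 to 1.89, edgeR adjusted p = 0.158). Neither passed by edgeR, while limma voom with quality weights called both (adjusted p = 1.29e-04 for Nr4a1 and 0.0252 for Nr4a3), as did edgeR fitted to the 2 groups alone (adjusted p = 0.00422 and 0.00872). Egr3 was the 1 member called in lungs, against 0.782% of all genes, at least 16.3-fold higher in ST2+ Tregs (edgeR adjusted p = 0.0383). That call rested on counts that came mostly from mice 1 and 2 and was lost when any of the 5 mice was left out (adjusted p from 0.0957 to 0.186) and with each mouse as a block (adjusted p = 0.0614).

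In VAT, Nr4a1 was higher in ST2+ Tregs of 5 of 5 mice without overlap and differed by 1.11 (95% confidence interval 0.39 to 1.82, edgeR adjusted p = 0.0680). With each mouse as a block it passed (1.09, adjusted p = 0.0352), and limma voom with quality weights called it (adjusted p = 8.31e-05). VAT Nr4a3 was higher in 4 of 5 mice, by 0.67 (95% confidence interval -0.05 to 1.40, edgeR adjusted p = 0.329), and was called by limma voom with quality weights (adjusted p = 0.0279). In VAT the immediate early genes described below move with this comparison, with 6 of 16 called higher in ST2+ Tregs. The 8 myeloid markers summed to 80.4 to 235 CPM in ST2+ and 0 to 111 CPM in ST2- CD44hi Tregs of VAT, with 7 of 8 detected in each and Itgam at 0 in the former and Csf1r in the latter. The part of either list in these values was not tested. The ST2- CD44hi libraries of VAT from mice 2 to 5 also came from 93 to 192 cells, and every ST2+ library of VAT from 220. Without the block, edgeR called 0 of 5 members in VAT, with 1 at an unadjusted p under 0.05, 0 by DESeq2 and 2 by limma voom, against 3.12% of all genes. In blood edgeR called 0 of 5 (background 4.04%), with 1, Egr3, at an unadjusted p under 0.05 and 0 by DESeq2 and limma voom. Spleen (0.319% of all genes), colon (0.0683%) and skin (0.213%) each gave 0 calls by edgeR, DESeq2 and limma voom, and 0 at an unadjusted p under 0.05. In colon Nr4a1 did not overlap and differed by 0.50 (95% confidence interval -0.31 to 1.31, edgeR adjusted p = 1). In skin Nr4a3 did not overlap, was higher in 5 of 5 mice and differed by 0.35 (95% confidence interval -0.37 to 1.06, edgeR adjusted p = 0.927). Splenic Nr4a1 differed by -0.38 (95% confidence interval -1.12 to 0.36, edgeR adjusted p = 1) and was higher in ST2+ Tregs of 2 of 5 mice. Whether the ST2 difference varied among the 6 tissues was tested as an interaction, in which edgeR called 0 of 5 members against 1.43% of all genes (adjusted p = 0.225 for Nr4a1 and 0.102 for Egr3). Of the 5, 2 had an unadjusted p under 0.05, DESeq2 called Egr3 (adjusted p = 0.0455) and limma voom called 0.

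**Figure D4:**
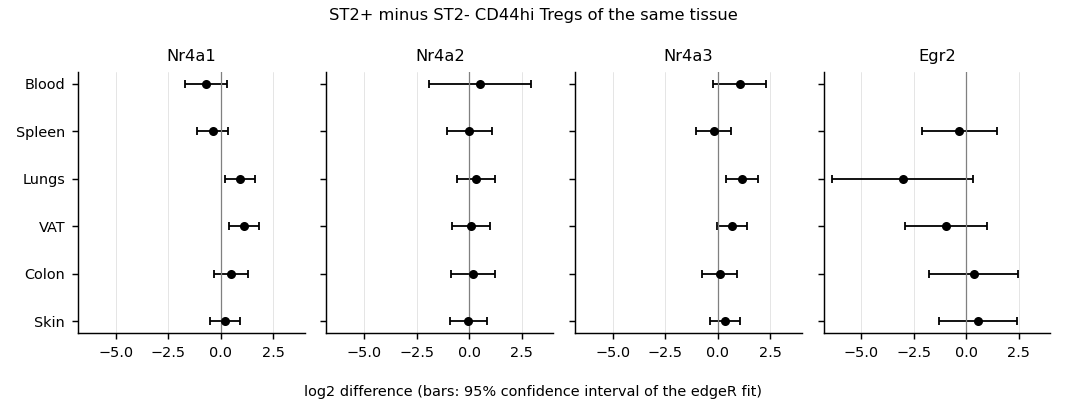
Difference between ST2+ and ST2- CD44hi Tregs of the same tissue (horizontal axis, log2 scale) for Nr4a1, Nr4a2, Nr4a3 and Egr2 in each tissue, with bars for the 95% confidence interval of the edgeR fit. Egr2 in blood, at 0 in ST2+ Tregs, and Egr3 are not drawn. Positive values mean higher in ST2+ Tregs, and Nr4a3 in lungs (1.14) and Nr4a1 in lungs (0.94) and VAT (1.11) have unadjusted intervals that do not reach 0.

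NR4A genes belong to a broader immediate early response that handling of tissue can also start, so 16 immediate early and dissociation genes such as Fos, Fosb, Junb, Dusp1 and Hspa1a were read beside them. Their summed level was 2762 to 3335 CPM in blood ST2+ and 2293 to 4533 CPM in spleen ST2+ CD44hi Tregs, and 6218 to 7798 CPM in lungs, 7755 to 10882 CPM in VAT, 9119 to 11312 CPM in colon and 7441 to 9848 CPM in skin of the same population. In ST2- CD44hi Tregs it was 2113 to 3394 CPM in blood, 2092 to 3676 CPM in spleen, 4691 to 6277 CPM in lungs, 3648 to 7163 CPM in VAT, 6469.6 to 9317 CPM in colon and 6880.3 to 9553 CPM in skin. All 16 genes were detected in every group. For these and the following lists, calls are given with the median log2 difference of the list and that of all tested genes. In CD44hi Tregs, the group medians of this sum and the NR4A group means were thus both lower in blood and spleen than in the 4 digested tissues. The sums overlapped between spleen (up to 3676 CPM) and VAT (from 3648 CPM) in ST2- CD44hi Tregs. Single genes need not follow the sum. Jun measured 84.9 to 432 CPM in spleen and 18.8 to 279 CPM in skin of ST2+ CD44hi Tregs. Lungs against spleen gave 10 of 16 genes higher and 0 lower (median 0.84 against -0.00208 for all genes, of which 4.87% were called) in ST2+ and 10 of 16 genes higher and 0 lower (median 0.90 against -0.02 for all genes, of which 4.03% were called) in ST2- CD44hi Tregs. Lung Fos was higher by 2.01 and 2.01 and lung Fosb by 2.998 and 2.58 on the log2 scale in the ST2+ and ST2- populations. In central Tregs, 7 of 16 genes higher and 0 lower (median 0.81 against 0 for all genes, of which 3.16% were called) were called in lungs against spleen. Spleen against blood, where Nr4a1 and Nr4a2 were called higher in spleen, gave 1 of 16 genes higher and 0 lower (median 0.12 against 0.04 for all genes, of which 4.11% were called) in ST2+ and 0 of 16 genes higher and 0 lower (median 0.21 against 0.02 for all genes, of which 3.38% were called) in ST2- CD44hi Tregs. Over the 14 group means, the log2 sum of the NR4A genes and that of the 16 genes had a Pearson r of 0.928, and over the 67 libraries within groups an r of -0.207. The points share tissues and libraries, so these are descriptions. The part of the immediate early response in the NR4A levels was not tested.

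**Figure D5:**
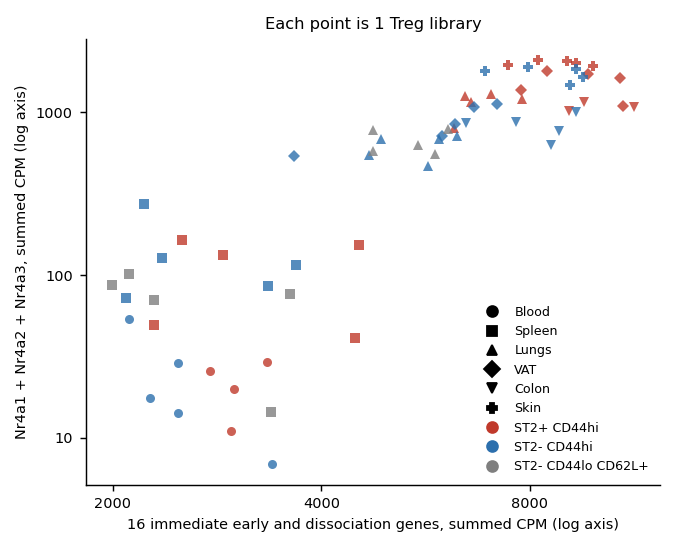
Summed CPM of Nr4a1, Nr4a2 and Nr4a3 (vertical log axis) against summed CPM of 16 immediate early and dissociation genes (horizontal log axis), with 1 point per library, its shape for tissue and its colour for population. Blood and spleen lie to the left, blood mostly below spleen, and lungs, VAT, colon and skin lie to the upper right, and within groups r is -0.207.

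In spleen, Fos and the NR4A sum ranked the mice differently. Splenic Fos, a component of the factor AP-1, was 67.1, 474, 51.5, 345 and 17.6 CPM in ST2+ CD44hi, 33.3, 399, 64.8, 274 and 37.95 CPM in ST2- CD44hi and 55.7, 463, 97.95, 355 and 155 CPM in ST2- CD44lo CD62L+ Tregs, high in mice 2 and 4 in all 3 populations. The NR4A sum of the same libraries was 163, 154, 133, 41.3 and 49.4 CPM, 274, 115, 127, 85.8 and 72.7 CPM and 102, 77.00, 70.5, 14.5 and 86.6 CPM. Mouse 4 was thus among the lowest 2 in each population while its Fos was among the highest 2.

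Egr1, the EGR gene most widely induced by growth signals, had its highest mean in another tissue than Egr2. Its mean level was 7.97 ± 8.11 CPM in blood, 107 ± 36.6 CPM in spleen, 17.2 ± 7.43 CPM in lungs, 150.5 ± 184 CPM in VAT, 335 ± 121 CPM in colon and 233 ± 135 CPM in skin of ST2- CD44hi Tregs (mean ± SD, n = 5). The highest mean was therefore in colon and not in spleen, and the lung minus spleen log2 difference was -2.67 (edgeR adjusted p = 0.00137). In ST2+ CD44hi Tregs Egr1 was 31.3, 43.01, 39.4, 41.5 and 129 CPM in lungs and 73.5, 54.9, 44.9, 70.2 and 66.3 CPM in spleen, so that 4 of 5 lung libraries lay below every splenic one and mouse 5 above. The lung minus spleen difference of Egr1 there was -0.11 (edgeR adjusted p = 0.972). Among Egr1, Egr4 and the corepressors Nab1 and Nab2, lungs against spleen gave 0 of 4 genes higher and 0 lower (median 0.10 against -0.00208 for all genes, of which 4.87% were called) in ST2+ and 0 of 4 genes higher and 1 lower (median -1.62 against -0.02 for all genes, of which 4.03% were called) in ST2- CD44hi Tregs, and skin against spleen 2 of 4 genes higher and 0 lower (median 1.74 against -0.01 for all genes, of which 29.1% were called) in the ST2+ population.

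Other TCR-induced genes, 16 in all, were split between spleen and lungs in ST2- CD44hi Tregs. There some were called higher in spleen, as Egr2 was, and some higher in lungs, as the NR4A genes were. In ST2+ CD44hi and central Tregs none of them was called higher in spleen than in lungs. Spleen against blood in ST2- CD44hi Tregs gave 4 of 16 genes higher and 0 lower (median 0.29 against 0.02 for all genes, of which 3.38% were called). Those were Irf4, a factor of effector Tregs (3.60 on the log2 scale), Pdcd1, which encodes the inhibitory receptor PD-1 (2.93), Tnfrsf9, the costimulatory receptor 4-1BB (2.38), and Nfatc1 (1.21). Lungs against spleen in ST2- CD44hi Tregs gave 5 of 16 genes higher and 3 lower (median 0.14 against -0.02 for all genes, of which 4.03% were called), with Tnfrsf9 (-1.59) and Nfatc1 (-0.72) among those lower, and Gem, a small GTPase (2.52), among those higher. In ST2+ CD44hi Tregs the same tissues gave 4 of 16 genes higher and 0 lower (median 0.36 against -0.00208 for all genes, of which 4.87% were called). Skin against spleen in ST2+ CD44hi Tregs gave 11 of 16 genes higher and 1 lower (median 1.03 against -0.01 for all genes, of which 29.1% were called), and in ST2- CD44hi Tregs 9 of 16 genes higher and 2 lower (median 0.95 against 0 for all genes, of which 30.9% were called). In central Tregs, lungs against spleen gave 7 of 16 genes higher and 0 lower (median 0.69 against 0 for all genes, of which 3.16% were called). Within spleen, CD44hi against CD44lo gave 5 of 16 genes higher and 0 lower (median 0.53 against 0.01 for all genes, of which 5.03% were called), Irf4 (3.55) and Pdcd1 (2.81) among them.

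Genes reported as NR4A or EGR targets, 15 in all, were read in the same comparisons. Within spleen, CD44hi against CD44lo gave 7 of 15 genes higher and 0 lower (median 0.97 against 0.01 for all genes, of which 5.03% were called), including Ikzf2, which encodes Helios (0.97 on the log2 scale), Tox (0.99) and Tnfrsf9 (1.11). Lungs against spleen gave 4 of 15 genes higher and 0 lower (median 0.07 against -0.00208 for all genes, of which 4.87% were called) in ST2+ and 3 of 15 genes higher and 2 lower (median -0.02 against -0.02 for all genes, of which 4.03% were called) in ST2- CD44hi Tregs. Cblb, a ubiquitin ligase that dampens TCR signals, was higher in lungs by 1.24 and 2.01 in these populations. Of 8 MAPK feedback inhibitors, lungs against spleen gave 3 of 8 genes higher and 0 lower (median 1.495 against -0.00208 for all genes, of which 4.87% were called) in ST2+ and 3 of 8 genes higher and 1 lower (median 0.13 against -0.02 for all genes, of which 4.03% were called) in ST2- CD44hi Tregs. The dual specificity phosphatases Dusp4 (2.54), Dusp5 (2.49) and Dusp10 (2.88) were higher in ST2- CD44hi Tregs of lungs, while Dusp6, which acts on ERK, was lower (-1.80).

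The genes whose pattern was most like each member were ranked by the Pearson r of mean log2 CPM over the 14 groups, which share tissues and so are not independent. Nr4a1 was closest to Tob2 (r = 0.977), Sik1 (0.976), Nr4a2 (0.952), Plk2 (0.9503) and Ets2 (0.945). Nr4a2 was closest to Nr4a3 (r = 0.974), Tob2 (0.958), Fosl2 (0.956), Dusp1 (0.955) and Odc1 (0.955). Nr4a3 was closest to Nr4a2, Odc1 (r = 0.968), Fosl2 (0.967), Got1 (0.966) and Gem (0.963). Nr4a2 and Nr4a3 were thus each the nearest pattern of the other, whereas Nr4a1 was not among the 5 nearest of either. Egr2 was closest to Eid2 (r = 0.871), Rcc1l (0.861), Tspan6 (0.830), Ggt7 (0.829) and Ift122 (0.825), and Egr3 to Tbc1d19 (0.839), Ghdc (0.837), Pak4 (0.828), Egr1 (0.823) and Tesk1 (0.798). Between members, r over the 14 group means was 0.928 to 0.974 for pairs of NR4A genes, 0.0674 to 0.101 for Egr2 with each NR4A gene and 0.599 for Egr2 with Egr3. Within groups, over 67 libraries, pairs of NR4A genes had an r of 0.163 to 0.282, and Egr2 with Egr3 one of 0.0154.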

How the data were processed

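RNA sequencing was done on sorted mouse Tregs with a SMART-Seq v4 and Nextera XT workflow. The deposited values are raw counts per Ensembl gene, which the authors made by aligning reads to GRCm38 with STAR and counting with HTSeq-count 0.4.1 after base calling with CASAVA 1.8.2; the counting mode is not given in the sources used here. The library kit does not mark strand. Libraries of at most 1000000 counts were left out, as in the study. Library sizes and TMM factors came from all genes. The 13173 protein-coding genes that reached 1 CPM in 10% of libraries were tested with edgeR 4.0.16 (R 4.3.3) quasi-likelihood tests over the 14 groups, where a called gene had a fold of 1.5 or more and an adjusted p (Benjamini-Hochberg) that did not exceed 0.05; F tests and the interaction used the adjusted p alone. Log2 CPM used a prior count of 2. A group with no counts was bounded at 3 counts over the group, which covers counting error only, since reads carry no molecular identifiers.

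Libraries are separate sorts, and the same number marks the same mouse in the labels. Deviations from the group mean were compared in 27 pairs of libraries, each ST2+ and ST2- CD44hi of 1 mouse and tissue. Their mean r was 0.0716 (from -0.00633 to 0.180, with 6 pairs over 0.1). The main fit has no mouse term; whether the study's model had one is not given in the sources used here. The alternatives were DESeq2 1.42.0, limma 3.58.1 voom with and without quality weights (the latter chosen after seeing the data), RLE factors, a mouse block, sorted cells as a covariate, no filter, all 70 libraries, 2 groups alone, CPM by total counts and each mouse left out. No 2 libraries held identical values. The edgeR steps were tested on simulated data. Named genes are the members, up to 5 examples from each list, and the 5 genes most like each member. The members and lists were chosen with earlier results of these data known. A gene list on TCR signalling is not reported here. Promoters came from RefSeq tables. Figures and descriptions used Python 3.11.15, numpy 2.4.6, pandas 2.3.3, scipy 1.17.1 and matplotlib 3.10.9.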

Additional observations from a re-analysis of the deposited data

Results flagged for a closer look

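In 62 groups of 4 or 5 libraries with a member's values, 11 had a library whose distance from its nearest neighbour was large against the range of its group. Chance flags about 1 in 20 such groups where values are normally distributed. A group with counts in only 1 library is always flagged, as the Egr2 groups below were. The number of flags can therefore not be set against that rate. Among the NR4A genes, Nr4a1 was low in lung ST2+ CD44hi of mouse 5 (649 CPM) and in skin ST2- CD44hi of mouse 4 (562 CPM), and high in splenic ST2- CD44hi of mouse 1 (225 CPM). Nr4a2 was high in splenic ST2+ CD44hi of mouse 2 (34.3 CPM) and low in skin ST2- CD44hi of mouse 2 (140.2 CPM), and Nr4a3 was low in blood ST2+ CD44hi of mouse 4 (2.76 CPM). Egr2 stood out where the other libraries of the group held none, in lung ST2+ CD44hi of mouse 3 (0.896 CPM), lung ST2- CD44hi of mouse 2 (11.1 CPM) and blood ST2- CD44hi of mouse 4 (3.57 CPM). Egr3 stood out in the same blood library (2.55 CPM) and in splenic ST2- CD44hi of mouse 1 (10.1 CPM).

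The libraries left out for low totals also held member counts above the level that a count of 0 allows. The blood ST2+ CD44hi library of mouse 1 held 4 Nr4a1 counts, and the colon ST2+ CD44hi library of mouse 5 held 89 Nr4a1 counts and 6 Nr4a3 counts. The libraries left out entered only the alternative run with all 70 libraries.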

How the results depend on the processing

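No called result changed direction under any alternative run. For ST2+ against ST2- CD44hi Tregs of lungs, 1 member was called, against 2 under limma voom with quality weights and with the 2 groups alone, 0 with the mouse block, with no filter and with all 70 libraries, and 0 to 0 with each mouse left out. In VAT 0 were called, against 2 under limma voom with or without quality weights and 1 with the mouse block or with the 2 groups alone. For CD44 in spleen 2 were called, against 1 under limma voom with or without quality weights (Egr2, in place of Nr4a2 and Nr4a3) and with the 2 groups alone (Nr4a2), and 1 to 2 with each mouse left out; in lungs 0 were called, and 0 to 1 with each mouse left out. DESeq2 called 1 member in the interaction, where edgeR called 0. The causes were not tested. The mouse block changed the calls of Egr3 in lungs (edgeR adjusted p = 0.0614) and Nr4a1 in VAT (edgeR adjusted p = 0.0352), and no other call outside the tissue pairs. With the block, the number of calls over tissue pairs moved from 42 to 43 in ST2+ and from 46 to 46 in ST2- CD44hi Tregs. RLE factors and sorted cells as a covariate changed no call outside the tissue pairs. Over all genes, the lung ST2 comparison gave 103 calls by edgeR, 235 by DESeq2 and 350 by limma voom with quality weights. Those were 0.782%, 1.78% and 2.66% of tested genes, with 1.91% for the 2 groups alone and 0.949% with the mouse block. VAT gave 3.12% by edgeR, 2.98% and 5.28% by limma voom with and without weights. It gave 3.64% with the block and 0.668% for the 2 groups alone. Splenic CD44 gave 5.03% by edgeR, 11.6% and 6.74% by limma voom with and without weights, and 7.67% for the 2 groups alone. The interaction gave 1.43% by edgeR and 3.61% by DESeq2. Egr3 held at most 51 counts in any library.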
